A study of Mus musculus with 6 samples.

Results

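The transcripts of 10 kinases of the LKB1–AMPK family were examined in mouse thyroid RNA-seq. They comprised *Stk11*, which encodes LKB1, the AMPK catalytic subunits *Prkaa1* and *Prkaa2*, the NUAK kinases *Nuak1* and *Nuak2*, the salt-inducible kinases *Sik1*, *Sik2* and *Sik3*, and the microtubule affinity regulating kinases *Mark2* and *Mark3*. They were taken by name from a deposited table of 21878 genes, and all 10 were present and had enough counts to be tested. The set was drawn up around *Nuak1* because of its difference between the groups in these same libraries. Fold changes of the 10 kinases between the groups, and counts of kinases past the limits of the study, are therefore given as a description, with no p-value.

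Thyroid glands came from female mice at 12 weeks of age, 3 mice per genotype. *Thy-Tet1*-/- mice had been bred from *Tet1* flox mice and mice with a Cre that acts in thyroid follicular epithelial cells, so that other cells of the gland keep *Tet1*. The *Thy-Tet1*+/+ controls were wild-type littermates, and whether they carried Cre or a floxed allele is not given in the sources used here. The library titles read control and treatment, numbered 1 to 3, and the labels give these the genotypes WT and TET1 KO. In the treatment field they name the knockout itself and no agent. The libraries are named by their labels, since the transcript of the targeted gene went against them.

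LKB1 is a master kinase. It works in a complex with a STRAD pseudokinase and a MO25 scaffold protein and switches on AMPK and its relatives by phosphorylating a threonine in their activation loop. AMPK senses low cellular energy and turns off lipid synthesis. The SIKs hold back CREB-driven transcription by phosphorylating the CRTC coactivators, and they also phosphorylate class IIa histone deacetylases. The NUAKs act on myosin phosphatase and on cell adhesion, and the MARKs control microtubules and cell polarity. In the thyroid, TSH acts largely through cAMP, the pathway that induces *Sik1* and that counteracts the SIKs.

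The kinases share the site at which LKB1 acts, and its coding sequence is shown because it is what joins them as one family. Each line gives 24 bases of the coding strand from 5′ to 3′, read from GENCODE M21 transcripts, with the codon of the activation-loop threonine in capitals.
Nuak1: ttgcaaACAttttgtgggagccca
Nuak2: ctccagACGttctgtgggagccct
Prkaa1: ttaagaACAagctgtggctcaccc
Prkaa2: ctacgaACTagctgtggatcgcca
Sik1: ctgtccACGtggtgtgggagcccc
Sik2: ctggcaACAtggtgtggcagcccc
Sik3: ctgaagACGtggtgtggcagccct
Mark2: ctggatACTttctgtggcagtcct
Mark3: ctagacACGttttgtggtagtcct
The *Nuak1* stretch lies at chr10:84380798-84380821 on the minus strand (GRCm38), in exon 5 of 7, with the threonine at codon 212. The *Nuak2* stretch lies at chr1:132330003-132330026 on the plus strand, in exon 6 of 8, and shares 18 of the 24 bases with *Nuak1*. *Sik2* shares 17 bases, *Sik1*, *Sik3*, *Mark2* and *Mark3* share 16 each, and *Prkaa1* and *Prkaa2* share 13 each. *Stk11*, the upstream kinase, was searched in the same way and holds no such stretch. In *Prkaa2* the codon is number 172, the position by which this AMPK site is commonly known. The stretches of *Prkaa1* and *Prkaa2* lie at chr15:5169961-5169984 (plus) and chr4:105049366-105049389 (minus). Those of *Sik1*, *Sik2* and *Sik3* lie at chr17:31851004-31851027 (minus), chr9:50917591-50917614 (minus) and chr9:46177910-46177933 (plus). Those of *Mark2* and *Mark3* lie at chr19:7285861-7285884 (minus) and chr12:111627160-111627183 (plus).

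Total counts ranged from 8867683 to 19950898 in the *Thy-Tet1*+/+ libraries and from 16624425 to 17699501 in the *Thy-Tet1*-/- labelled libraries. Such depth gave each of the 10 kinases over 100 counts in every library. *Tet1* itself had 5.69, 3.80 and 3.44 CPM (read counts scaled to library size with TMM factors) in the *Thy-Tet1*+/+ libraries and 9.37, 9.60 and 12.2 CPM in the *Thy-Tet1*-/- labelled libraries. The log2 fold change of *Tet1* came to 1.28 (standard error, SE, 0.27), with an edgeR adjusted p = 0.101 (range of 0.0012 to 0.325 over the alternatives), so its direction is opposite to the label. Counts were per gene, and reads on the deleted part were not analysed here. Tissue make-up also differed between libraries. The summed CPM of 10 skeletal muscle genes ran from 910 to 6892 in the *Thy-Tet1*+/+ libraries and from 132 to 7378 in the *Thy-Tet1*-/- labelled libraries, being lowest in the labelled *Thy-Tet1*-/- replicates 1 and 3. The 4 parathyroid genes summed to 192 CPM in *Thy-Tet1*+/+ replicate 2 and to between 7949 and 31340 CPM in the other 5 libraries. The 8 lymphocyte and thymocyte genes summed to 120 CPM in *Thy-Tet1*+/+ replicate 1, to 497 CPM in the labelled *Thy-Tet1*-/- replicate 3 and to at most 7.27 CPM elsewhere. Of 10 follicular cell markers all were found in every library, although *Slc26a4* was at most 0.277 CPM. Their sum was 256709 to 316859 CPM in *Thy-Tet1*+/+ and 193893 to 239731 CPM in the *Thy-Tet1*-/- labelled libraries, without overlap. Nearly all of this sum came from 1 gene, and over the list 5 of the 10 genes had a higher and 5 a lower mean in the *Thy-Tet1*-/- labelled libraries. In bulk tissue, fewer cells of a type and less RNA per cell cannot be told apart.

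*Nuak1* stood apart from the other 9 kinases. It encodes a kinase linked to cell adhesion, survival under metabolic stress and axon branching. It had 14.8, 11.7 and 11.0 CPM in *Thy-Tet1*+/+ replicates 1 to 3 and 34.9, 40.8 and 31.9 CPM in the *Thy-Tet1*-/- labelled libraries. Every library labelled *Thy-Tet1*-/- was thus more than 2-fold above every *Thy-Tet1*+/+ library, and the spread within each group was small beside the gap. The group means were 12.5 ± 2.05 CPM (SD, n = 3) and 35.8 ± 4.52 CPM (SD, n = 3). The fitted log2 fold change was 1.53 (SE 0.17), or 2.88-fold on the linear scale. Among the 14143 tested genes, 235 had a larger positive log2 fold change. The difference is the value for which the set was drawn up and supports nothing further. The sums of the epithelial genes, given below, and of the follicular markers moved with the same groups in the opposite direction, the latter through 1 gene. By gene, 3 of 10 epithelial and 5 of 10 follicular genes had a higher mean in the *Thy-Tet1*-/- labelled libraries. Their part in the value was not tested.

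*Nuak2*, the other NUAK, encodes a kinase that also acts on myosin phosphatase and cell contractility. It had 17.2, 10.3 and 11.5 CPM in *Thy-Tet1*+/+ and 20.6, 15.8 and 16.3 CPM in the *Thy-Tet1*-/- labelled libraries. The groups overlapped through *Thy-Tet1*+/+ replicate 1, the shallowest library, which lay above 2 of the 3 labelled *Thy-Tet1*-/- libraries. Its log2 fold change was 0.44 (SE 0.24), and 0.69 without that library. It was 0.29 without the labelled *Thy-Tet1*-/- replicate 1 and 0.30 without *Thy-Tet1*+/+ replicate 2.

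**Figure D1:**
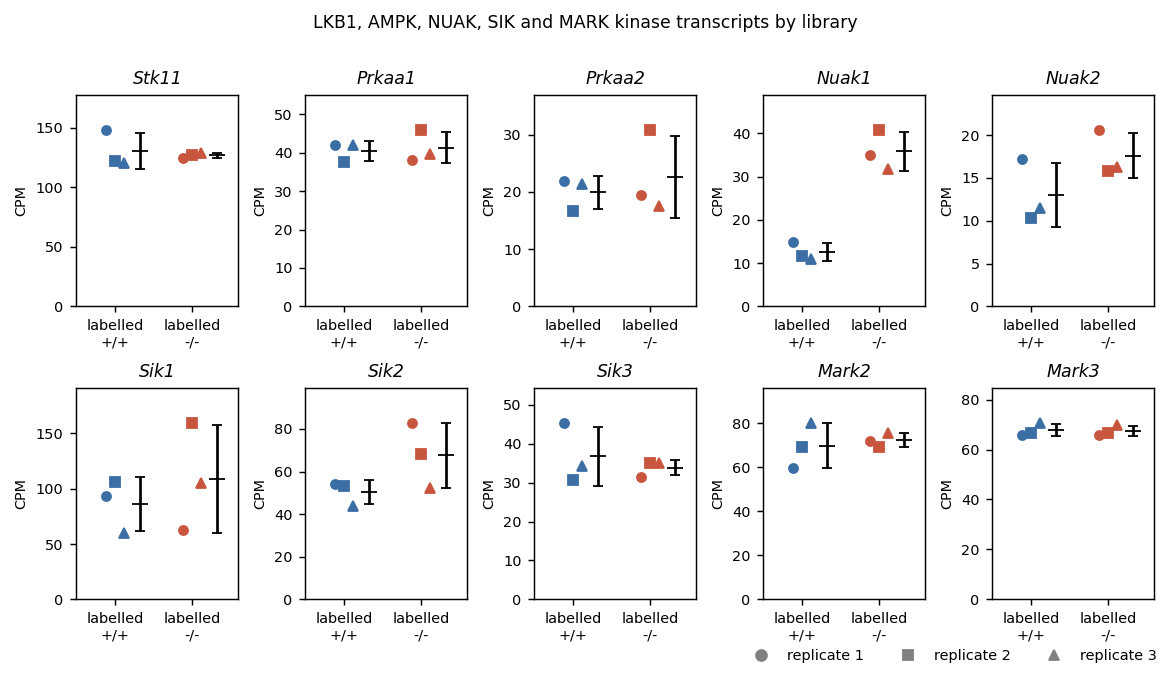
CPM (scaled read counts, linear axes from 0) of the 10 kinases in each library, grouped by genotype label, with one symbol per replicate number and, in black, the mean and SD of the 3 libraries. The groups are apart for *Nuak1*, at 11.0 to 14.8 against 31.9 to 40.8 CPM, and overlap for the other 9 kinases.

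Of the salt-inducible kinases, *Sik1* varied most between mice of 1 group. It is an immediate response gene of cAMP signalling. It had 93.0, 106 and 59.5 CPM in *Thy-Tet1*+/+ and 62.3, 159 and 105 CPM in the *Thy-Tet1*-/- labelled libraries. The highest value was 1.79 times the lowest among the first 3 and 2.55 times among the others, and the groups overlapped widely. The log2 fold change of 0.33 (SE 0.36) was less than the error, and it turned to -0.06 without the labelled *Thy-Tet1*-/- replicate 2. It was 0.12 without *Thy-Tet1*+/+ replicate 3 and 0.59 without the labelled *Thy-Tet1*-/- replicate 1.

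*Sik2*, a kinase abundant in adipose tissue, had 54.3, 53.3 and 44.1 CPM in *Thy-Tet1*+/+ and 82.7, 68.1 and 52.2 CPM in the *Thy-Tet1*-/- labelled libraries. The labelled *Thy-Tet1*-/- replicate 3 fell inside the range of the controls, and the other 2 lay above it. Its log2 fold change was 0.42 (SE 0.19), and 0.23 without the labelled *Thy-Tet1*-/- replicate 1, the library highest in adipocyte transcripts. The summed CPM of 6 adipocyte genes was 496, 215 and 153 in *Thy-Tet1*+/+ and 1617, 740 and 356 in the *Thy-Tet1*-/- labelled libraries, so that the 3 libraries with the most *Sik2* were also the 3 with the most adipocyte transcripts. All 6 adipocyte genes had a higher mean in the *Thy-Tet1*-/- labelled libraries and none was at 0, and their part in the *Sik2* values was not tested. The exons of *Sik2* overlap those of *Ppp2r1b* on the opposite strand by 1429 of 9539 bases (15.0%) in GENCODE M21. Whether the counting used strand is not given in the sources used here, so part of its count is uncertain.

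*Sik3*, the largest of the SIKs and a regulator of lipid metabolism, skeletal growth and sleep, had 45.3, 30.8 and 34.2 CPM in *Thy-Tet1*+/+ and 31.5, 35.1 and 35.0 CPM in the *Thy-Tet1*-/- labelled libraries. *Thy-Tet1*+/+ replicate 1 was the high value, and the other 5 libraries lay between 30.8 and 35.1 CPM. The log2 fold change was -0.12 (SE 0.16), and 0.06 without that library.

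AMPK is a trimer with a catalytic α-subunit, of which there are 2 forms. *Prkaa1*, the form found in most tissues, had 42.0, 37.6 and 42.0 CPM in *Thy-Tet1*+/+ and 38.2, 45.9 and 39.8 CPM in the *Thy-Tet1*-/- labelled libraries. The log2 fold change of 0.03 (SE 0.12) was within the spread between mice. *Prkaa2*, the form that predominates in skeletal muscle, had 21.8, 16.6 and 21.3 CPM in *Thy-Tet1*+/+ and 19.4, 30.8 and 17.6 CPM in the *Thy-Tet1*-/- labelled libraries. The labelled *Thy-Tet1*-/- replicate 2 stood above the other 5 libraries. Its log2 fold change was 0.18 (SE 0.24) and turned to -0.11 without that library.

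Skeletal muscle transcripts went with *Prkaa2* in part of the libraries. Their summed CPM was highest in the labelled *Thy-Tet1*-/- replicate 2, at 7378, followed by *Thy-Tet1*+/+ replicates 1 and 3 at 6892 and 4109. These were also the 3 libraries with the most *Prkaa2*, in the same order. The order did not hold below them, since *Thy-Tet1*+/+ replicate 2 had the least *Prkaa2* but 910 CPM of muscle transcripts, against 261 and 132 CPM in the labelled *Thy-Tet1*-/- replicates 1 and 3. All 10 muscle genes were detected in every library and all 10 had a lower mean in the *Thy-Tet1*-/- labelled libraries. *Prkag3*, the γ-subunit of AMPK found in fast muscle and named here after its values were seen, had 11, 6 and 12 counts in *Thy-Tet1*+/+ and 1, 30 and 0 counts in the *Thy-Tet1*-/- labelled libraries. Scaled to depth, its 6 libraries stood in the order of their muscle sums. For the library at 0, a level of up to 3 counts, or 0.169 CPM, is allowed by counting error. The part of muscle in the *Prkaa2* values was not tested.

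*Stk11* and the MARKs, with *Prkaa1*, had the fold changes nearest 0 of the set. *Stk11* had 148, 122 and 121 CPM in *Thy-Tet1*+/+ and 125, 127 and 129 CPM in the *Thy-Tet1*-/- labelled libraries, a log2 fold change of -0.04 (SE 0.12). Its exons overlap those of *Cbarp* on the opposite strand by 232 bases. *Mark2*, also known as PAR-1b and required for epithelial polarity, had 59.7, 69.4 and 80.1 CPM against 72.0, 69.3 and 75.7 CPM, a log2 fold change of 0.05 (SE 0.13). *Mark3*, a kinase of KSR1 and CDC25C, had 65.8, 66.8 and 70.6 CPM against 65.9, 66.5 and 69.9 CPM, a log2 fold change of -0.01 (SE 0.09). Its coefficient of variation was 3.70% in *Thy-Tet1*+/+ and 3.17% in the *Thy-Tet1*-/- labelled libraries.

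The limits of the study for a differentially expressed gene were an absolute log2 fold change above 0.585, which is 1.5-fold, with an unadjusted p under 0.05. Of all tested genes 9.20% met them by edgeR's quasi-likelihood test, 5.54% with higher and 3.66% with lower counts in the *Thy-Tet1*-/- labelled libraries. Of the 10 kinases 1 met them, *Nuak1*, which chose the set, so nothing is read from this count. The groups did not overlap for 26.8% of all tested genes and for the same 1 of the 10 kinases. The median log2 fold change was 0.12 over the 10 kinases, 0.05 over the 9 without *Nuak1* and 0.00063 over all tested genes. Over the 10 it was -0.02 without the labelled *Thy-Tet1*-/- replicate 2 and 0.06 without *Thy-Tet1*+/+ replicate 2. The 9 ranged from -0.12 to 0.44.

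**Figure D2:**
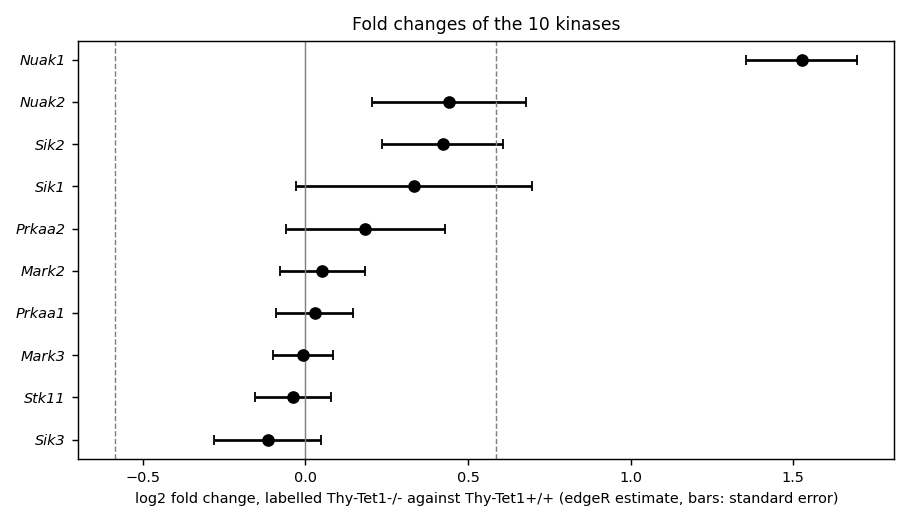
Log2 fold change of each kinase between the *Thy-Tet1*-/- labelled libraries and *Thy-Tet1*+/+ (points, edgeR estimate) with its SE (bars), on a linear axis, where dashed lines mark 0.585 in either direction. *Nuak1* lies at 1.53 and the other 9 lie between -0.12 and 0.44.

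The scaling moved these values. When the libraries were scaled to 10 epithelial genes such as *Epcam* and *Cdh1* in place of all genes, the median of all tested genes moved to 0.38 and all 10 kinases had positive log2 fold changes. These 10 genes summed to 2100 to 2782 CPM in *Thy-Tet1*+/+ and to 1613 to 1700 CPM in the *Thy-Tet1*-/- labelled libraries, although 3 of the 10 had a higher mean in the latter. *Nuak1* was then at 1.89, and *Nuak2* at 0.79 and *Sik2* at 0.80 also met the limits. Relative to the shifted median, *Stk11* at 0.32, *Sik3* at 0.24 and *Mark3* at 0.37 lay below it, and these 3 were also the ones below 0 with TMM.

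Levels of different kinases were compared per kilobase of the longest annotated transcript (RPKM), a comparison that the choice of the set did not use. *Stk11* was the most abundant, with 35.1 ± 2.73 RPKM (SD, n = 6 libraries). It was followed by *Sik1* with 21.6 ± 8.05 RPKM, *Mark2* with 15.8 ± 1.54 RPKM, *Mark3* with 12.1 ± 0.37 RPKM and *Sik2* with 11.0 ± 2.59 RPKM (each SD, n = 6). Below them came *Prkaa1* with 8.79 ± 0.66 RPKM, *Sik3* with 5.62 ± 0.83 RPKM, *Nuak2* with 4.92 ± 1.22 RPKM, *Nuak1* with 4.35 ± 2.37 RPKM and *Prkaa2* with 2.67 ± 0.64 RPKM (each SD, n = 6). With these lengths, *Mark2* over *Mark3* and *Prkaa1* over *Sik3*, of the 9 neighbours in this order, held in all 6 libraries. The order rests on the lengths used. The median transcript length was 4636.5 bases for *Prkaa1*, 3657 for *Sik3*, 910 for *Mark2* and 1703 for *Sik1*. By these lengths *Sik3* would stand above *Prkaa1* on the mean, and *Mark2* above *Sik1*. With the longest transcripts, *Stk11* over *Sik1*, *Sik2* over *Prkaa1* and *Sik3* over *Nuak2* held in 5 of 6. The other 4 held in 4 of 6, so that the order of these 7 neighbours was within their spread. With the longest transcripts, *Nuak1* had the lowest mean of the 10 in the *Thy-Tet1*+/+ libraries, at 2.25 ± 0.37 RPKM (SD, n = 3). In replicate 2 of these, *Prkaa2* was lower, at 2.09 against 2.10 RPKM. By the median lengths, 3018 bases for *Nuak1* and 7969 for *Prkaa2*, *Nuak1* would stand above *Prkaa2* on the mean. It was in place 7 in the *Thy-Tet1*-/- labelled libraries, at 6.45 ± 0.81 RPKM (SD, n = 3). The change of place repeats the *Nuak1* difference that chose the set.

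**Figure D3:**
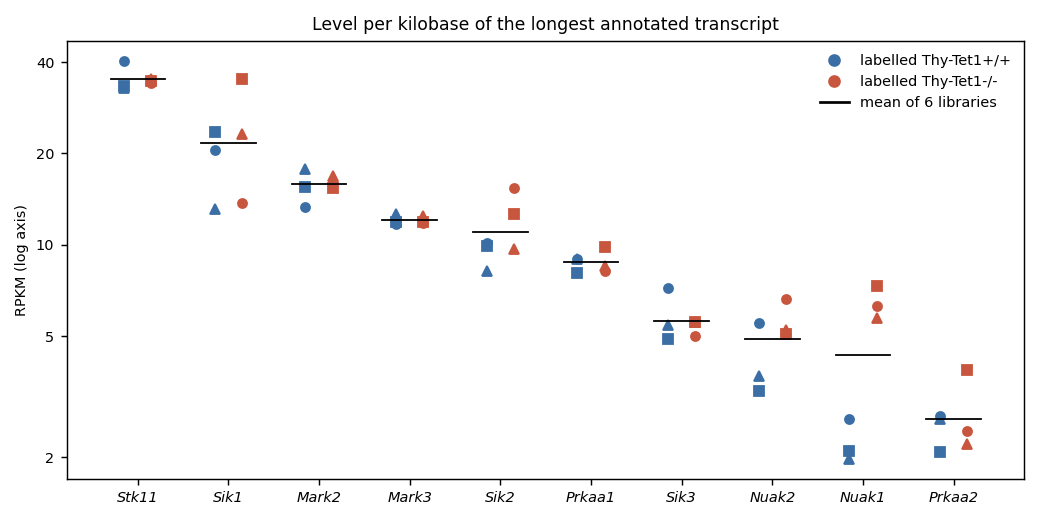
RPKM (log axis) of the 10 kinases in order of their mean over 6 libraries, with blue and red symbols for the 2 groups, symbol shape for the replicate number and black lines for the means. *Stk11* lies at 33.0 to 40.4 RPKM, and *Nuak1* at 1.98 to 2.67 RPKM in *Thy-Tet1*+/+ and 5.73 to 7.33 RPKM in the *Thy-Tet1*-/- labelled libraries.

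Within families, 6 pairs were compared inside each library with a two-sided exact sign-flip permutation test, whose smallest p over 6 libraries is 0.03125. *Prkaa1* exceeded *Prkaa2* in 6 of 6 libraries, by 1.75 ± 0.22 on the log2 RPKM scale (SD, n = 6), or 3.36-fold (exact p = 0.03125, adjusted p = 0.0469 over the 6 pairs). The same p was reached by *Sik1* over *Sik3* (1.87 ± 0.54, SD, n = 6), *Sik2* over *Sik3* (0.95 ± 0.42, SD, n = 6) and *Mark2* over *Mark3* (0.39 ± 0.11, SD, n = 6), each in 6 of 6 libraries (exact permutation test, adjusted p = 0.0469). *Sik1* exceeded *Sik2* in 5 of 6 libraries, by 0.92 ± 0.59 (SD, n = 6, exact permutation p = 0.0625, adjusted p = 0.075). No test is given for the sixth pair, since the *Nuak1* values chose the set. *Nuak1* over *Nuak2* was -0.87 ± 0.20 (SD, n = 3) in *Thy-Tet1*+/+ and 0.19 ± 0.31 (SD, n = 3) in the *Thy-Tet1*-/- labelled libraries, which repeats the *Nuak1* difference. This pair was kept in the adjustment over 6. All of these ratios rest on the transcript lengths used.

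The genes around the kinases were read from 9 lists of 79 genes in all, of which 78 were tested. Of these 7 met the limits, 2 higher and 5 lower in the *Thy-Tet1*-/- labelled libraries, which is 8.97% against 9.20% of all tested genes. The split was 2.56% higher and 6.41% lower, against 5.54% and 3.66%. With the libraries scaled to the epithelial genes, the lists had 12 higher and 4 lower. In that scaling 96.0% of all genes within the limits were higher, against 60.2% in the fit reported. The groups did not overlap for 19 (24.4%), against 26.8%. Neither share stood far from that of all genes, and the median log2 fold change was -0.02.

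**Figure D4:**
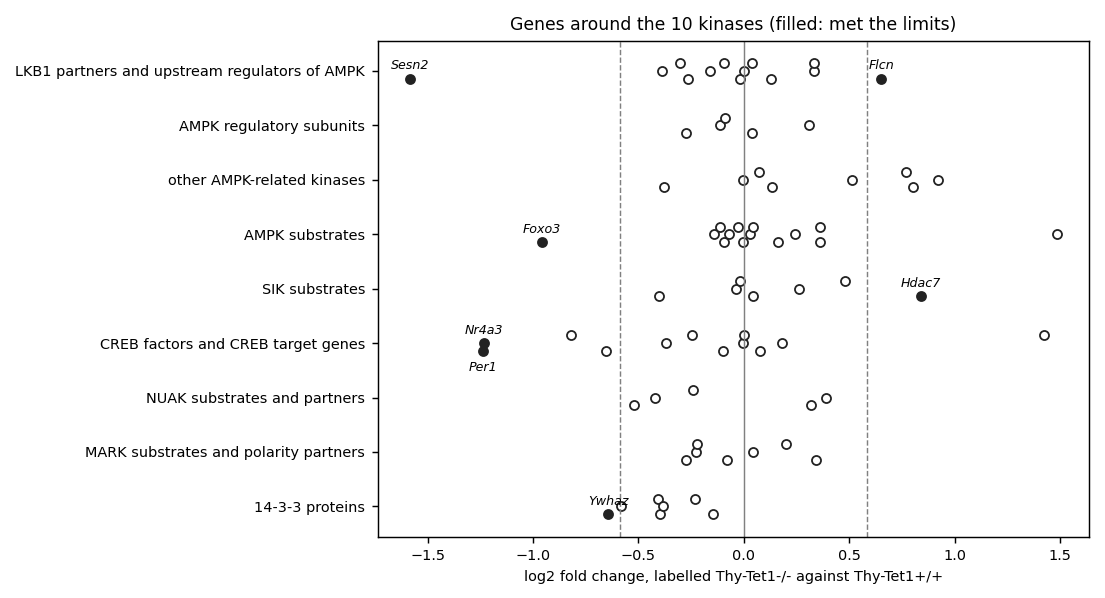
Log2 fold change (linear axis) of the 78 tested list genes, one row per list, with filled and named points for the 7 genes that met the limits and dashed lines at 0.585 in either direction. *Sesn2* lies furthest to the left at -1.58, and the open point furthest to the right is *Acacb* at 1.49.

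Among 13 LKB1 partners and upstream regulators of AMPK, 1 was higher and 1 was lower. *Sesn2*, a stress-induced protein that promotes AMPK activity and inhibits mTORC1, had 57.3, 55.9 and 40.9 CPM in *Thy-Tet1*+/+ and 15.7, 19.2 and 16.5 CPM in the *Thy-Tet1*-/- labelled libraries. It fell by 1.58 on the log2 scale (SE 0.17, edgeR adjusted p = 0.0466 over all genes, with a range of 1.17e-11 to 0.310 over the alternatives). *Flcn*, the folliculin gene, whose product binds AMPK through the FNIP proteins, had 40.1, 47.9 and 60.6 CPM against 93.7, 63.3 and 76.9 CPM. Its log2 fold change was 0.65 (SE 0.20, edgeR adjusted p = 0.170, range 0.0453 to 0.429), and it no longer met the limits without *Thy-Tet1*+/+ replicate 1 (0.52) or without the labelled *Thy-Tet1*-/- replicate 1 (0.48). Its partners *Fnip1* and *Fnip2* did not meet the limits, at -0.10 and -0.39. In each list the gene with the highest mean CPM over the 6 libraries is also given, which need not lead in each group. Here it was the scaffold *Cab39l*, with 140 ± 37.9 CPM (SD, n = 3) against 139 ± 14.9 CPM (SD, n = 3).

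None of the 5 AMPK regulatory subunits met the limits, and their log2 fold changes ranged from -0.27 to 0.31. *Prkag2* had the highest mean over the 6 libraries, with 63.0 ± 4.20 CPM (SD, n = 3) against 64.8 ± 8.80 CPM (SD, n = 3). None of the 8 other AMPK-related kinases met them either, with a range of -0.38 to 0.92. The high end of that range came from *Brsk2*, *Melk* and *Hunk*, at mean levels of at most 3.35 CPM with SEs of 0.58, 0.85 and 0.57. *Snrk*, with the highest mean over the 6 libraries, had 103 ± 28.7 CPM (SD, n = 3) against 79.1 ± 6.60 CPM (SD, n = 3), which is a log2 fold change of -0.38 (SE 0.20).

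Of 14 AMPK substrates 1 was lower and none was higher. *Foxo3*, a transcription factor of stress resistance and autophagy, had 333, 227 and 218 CPM in *Thy-Tet1*+/+ and 129, 128 and 144 CPM in the *Thy-Tet1*-/- labelled libraries. It fell by 0.96 on the log2 scale (SE 0.19, edgeR adjusted p = 0.0965, range 1.07e-04 to 0.325). *Acacb* and *Acaca*, the acetyl-CoA carboxylases that AMPK inhibits, were spread widely within groups. *Acacb*, named here after its values were seen, had 55.2, 18.9 and 19.0 CPM against 129, 97.9 and 30.9 CPM, a log2 fold change of 1.49 (SE 0.63) that missed the limit on p, although it met the limits in 10 of the 15 fits run. The 3 libraries highest in *Acacb* were the 3 highest in adipocyte transcripts, in the same order, and the part of these in its values was not tested. *Acaca*, with the highest mean over the 6 libraries though below *Foxo3* in *Thy-Tet1*+/+, had 193 ± 88.2 CPM (SD, n = 3) against 247 ± 95.3 CPM (SD, n = 3).

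Of 7 SIK substrates 1 was higher. *Hdac7*, a class IIa histone deacetylase that SIK phosphorylation keeps out of the nucleus, had 62.9, 55.0 and 62.5 CPM in *Thy-Tet1*+/+ and 108, 85.1 and 130 CPM in the *Thy-Tet1*-/- labelled libraries. Its log2 fold change was 0.84 (SE 0.17, edgeR adjusted p = 0.0965, range 5.64e-04 to 0.325). *Hdac5*, with the highest mean over the 6 libraries though below *Hdac7* in the *Thy-Tet1*-/- labelled libraries, had 70.5 ± 6.42 CPM (SD, n = 3) against 98.3 ± 4.67 CPM (SD, n = 3), which is a log2 fold change of 0.48 that missed the limit on size. The coactivators *Crtc1*, *Crtc2* and *Crtc3*, through which the SIKs act on CREB, were at 0.05, 0.26 and -0.02.

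The 12 CREB factors and CREB target genes had 2 lower and 0 higher members. *Per1*, a clock gene that CREB induces, had 104, 110 and 119 CPM in *Thy-Tet1*+/+ and 50.5, 50.8 and 39.8 CPM in the *Thy-Tet1*-/- labelled libraries. It fell by 1.24 on the log2 scale (SE 0.13, edgeR adjusted p = 0.0466, range 7.36e-12 to 0.310). *Nr4a3*, an orphan nuclear receptor induced early by cAMP, had 8.30, 15.6 and 11.0 CPM against 6.21, 4.03 and 4.62 CPM. It fell by 1.24 (SE 0.31, edgeR adjusted p = 0.118, range 0.0112 to 0.325). The other NR4A genes, *Nr4a1* and *Nr4a2*, were at 0.0011 and 0.18, and *Fos* and *Crem* at -0.65 and -0.82 with SEs of 0.59 and 0.41. *Pck1*, a gluconeogenic enzyme also made in fat, had the highest mean over the 6 libraries through the labelled *Thy-Tet1*-/- replicate 1, and was below *Per1* in *Thy-Tet1*+/+. It had 142, 52.3 and 16.3 CPM against 387, 120 and 56.1 CPM, a log2 fold change of 1.43 (SE 0.92).

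**Figure D5:**
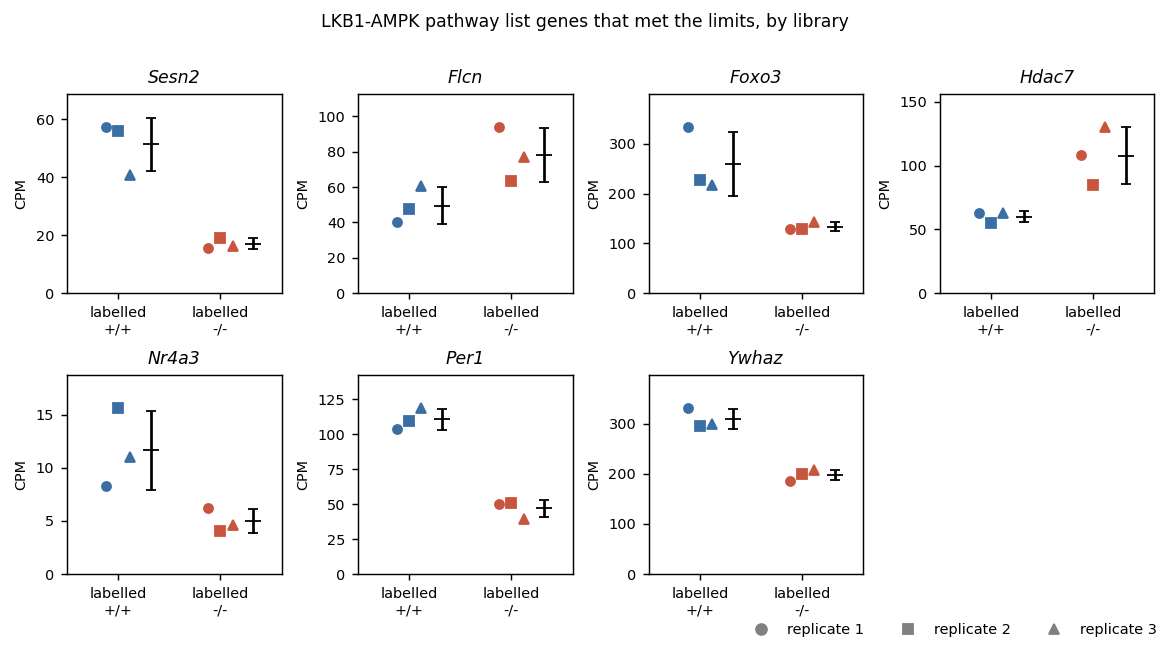
CPM (linear axes from 0) in each library of the 7 list genes that met the limits, with one symbol per replicate number and the mean and SD of the 3 libraries in black. The groups do not overlap for any of the 7, against 26.8% of all tested genes without overlap. This follows largely from picking the 7 by the limits in these same libraries. *Sesn2* lies at 40.9 to 57.3 CPM against 15.7 to 19.2 CPM.

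None of the 5 NUAK substrates and partners met the limits. *Ppp1r12a*, the myosin phosphatase targeting subunit that NUAK1 phosphorylates, was at 0.32 (SE 0.12) and its relative *Ppp1r12b* at -0.52 (SE 0.18). The catalytic subunit *Ppp1cb*, with the highest mean over the 6 libraries, had 276 ± 5.36 CPM (SD, n = 3) against 234 ± 11.8 CPM (SD, n = 3), which is a log2 fold change of -0.24 (SE 0.11). The groups did not overlap for 4 of these 5 genes, 1 higher and 3 lower, at sizes under the limit, where 26.8% of all tested genes did not overlap. Nothing is read from a list of 5.

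None of the 7 tested MARK substrates and polarity partners met the limits, with a range of -0.27 to 0.34. *Map4*, a microtubule-associated protein and the highest in mean over the 6 libraries, had 186 ± 15.0 CPM (SD, n = 3) against 154 ± 23.1 CPM (SD, n = 3). *Cdc25c* had too few counts to be tested.

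Of the 7 genes for 14-3-3 proteins, which bind many targets once these kinases have phosphorylated them, 1 was lower. *Ywhaz* had 331, 296 and 300 CPM in *Thy-Tet1*+/+ and 186, 199 and 208 CPM in the *Thy-Tet1*-/- labelled libraries. It fell by 0.64 on the log2 scale (SE 0.11, edgeR adjusted p = 0.0817, range 2.85e-07 to 0.327). All 7 had negative log2 fold changes, with a median of -0.40, where the median of all tested genes was 0.00063 and 50.1% of them were above 0. The groups did not overlap for 2 of the 7 (28.6%), against 26.8% of all tested genes. The median of the 7 was -0.24 without *Thy-Tet1*+/+ replicate 2 and -0.56 without *Thy-Tet1*+/+ replicate 1. Without *Thy-Tet1*+/+ replicate 2, or without the labelled *Thy-Tet1*-/- replicate 3, 6 of the 7 were negative. When the libraries were scaled to the epithelial genes, 4 of 7 were negative, with a median of -0.0079. The median of all tested genes was then 0.38, so the 14-3-3 median lay below it in both scalings. *Ywhaz* was at -0.28 in the epithelial scaling and no longer met the limits. *Ywhae*, the highest in mean over the 6 libraries, had 407 ± 65.5 CPM (SD, n = 3) against 347 ± 13.6 CPM (SD, n = 3).

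Over the 6 libraries, the genes whose log2 CPM followed *Nuak1* most closely were *Dbp* (Pearson r = 0.993), *Fbxo10* (0.988), *Inmt* (0.985), *Fzd2* (0.985) and *Palm* (0.983). *Dbp* is a clock-controlled transcription factor, *Fzd2* a WNT receptor and *Inmt* a methyltransferase. These values describe the 5 best of all tested genes, and 110 genes had an r above 0.95. The points share the same libraries and the same step between the groups. Among the other kinases, r to *Nuak1* was 0.744 for *Nuak2* and 0.745 for *Sik2* and ranged from -0.24 to 0.39 for the rest.

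Promoter windows of 300 bases, from 250 before to 50 after the annotated start (RefSeq, GRCm38.p6), were found for 8 of the 10 kinases. No window was found for *Nuak2* or *Sik1*, so neither was read for the motifs below. Since TET1 binds CpG-rich DNA, CpG pairs were counted. The *Nuak1* window at chr10:84440619-84440918 held 41 CpG pairs and was 77.0% G and C, against a median of 7 pairs and 52.7% over 32851 windows, and 96.5% of all windows held fewer. *Prkaa1* held 52, *Sik2* 43, *Sik3* 39, *Prkaa2* 35 and *Stk11* 33 pairs, while the paired windows of *Mark2* held 7 and 25 and those of *Mark3* held 24 and 25. The share of all windows with fewer pairs was 99.4% for *Prkaa1*, 97.4% for *Sik2* and 95.6% for *Sik3*. It was 93.0% for *Prkaa2*, 91.4% for *Stk11* and 47.9% to 81.6% for the MARKs. A CpG-rich window was thus not particular to *Nuak1*. The full cAMP response element TGACGTCA was in none of these windows, against 1.79% of all windows. Its shorter form TGACG was in windows of *Stk11*, *Prkaa2*, *Sik2*, *Sik3*, *Mark2* and *Mark3*, against 20.8% of all windows. Those of *Nuak1* and *Prkaa1* lacked it. This short form itself holds a CpG pair, and the part of CpG content in these hits was not tested. The E-box CACGTG was in that of *Sik3*, against 7.15% of all, both strands being read.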

How the data were processed

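RNA-seq counts of 6 thyroid libraries, with the label *Thy-Tet1*+/+ on 3 and *Thy-Tet1*-/- on the other 3, were analysed. The authors deposited raw read counts per gene, without normalization, on genome build mm10 per the submitters' processing notes. The aligner, counter and annotation are not given in the sources used here. The deposited library protocol speaks of poly(A) selection and of retinas, while the stated source is thyroid. In the table, 27 gene symbols that had turned into dates were restored from NCBI gene identifiers. Titles number the libraries 1 to 3, and nothing ties a number to a litter. The separate mice are taken as replicates. Replicate libraries differed by more than sampling noise.

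Counts were tested in R 4.3.3 with edgeR 4.0.16 (filterByExpr, TMM, glmQLFit, glmQLFTest, Benjamini-Hochberg over 14143 genes). The standard error is the log2 fold change divided by the root of the F statistic. DESeq2 1.42.0 and limma 3.58.1 were alternatives, as were RLE, upper quartile and epithelial scaling, other filters, a replicate block and leaving out each library. RPKM used the longest GENCODE M21 transcript, or the median length. Log2 CPM for likeness to *Nuak1* had a prior count of 2. The code was tested on simulated data.

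The kinases and lists were chosen with earlier results of these data known. Named were the 10 kinases, *Tet1*, each list gene that met the limits, the gene of highest mean CPM per list, and the 5 genes most like *Nuak1*. Other list genes were named after their values were seen. Marker sums for thyroid C cells, macrophages, fibroblasts, endothelium, nerve and red blood cells overlapped between the groups. The 4 cartilage genes, at most 21.2 CPM in sum, did not.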

Additional observations from a re-analysis of the deposited data

How the results depend on the processing

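Of the 10 kinases 1 met the limits in the fit reported, as it did under every alternative apart from those that follow. Scaling to the epithelial genes gave 3 kinases, 2911 genes of the table (1301 in the fit reported) and 16 list genes (7) within the limits, the latter 12 higher and 4 lower, and 524 genes (16) with an adjusted p under 0.05. In that scaling 96.0% of the genes within the limits were higher, against 60.2%, and 70.5% with upper quartile scaling. *Tet1* then had a log2 fold change of 1.64 (edgeR adjusted p = 0.0481), and 1.31 with DESeq2 (adjusted p = 0.0012). Genes with an adjusted p under 0.05 numbered 5 with upper quartile scaling, 25 with at least 10 counts in every library, 1192 with DESeq2 and 0 by edgeR with the replicate block, where 1900 had an unadjusted p under 0.05. With each library left out they numbered 0 to 1 by edgeR, against 1769 to 2980 unadjusted, and the kinases within the limits 1 to 2. *Nuak2* was the second, without *Thy-Tet1*+/+ replicate 1. *Nuak1* ranged from 1.42 to 1.89 over the 14 alternatives, and *Stk11*, *Prkaa1*, *Prkaa2*, *Sik1*, *Sik3*, *Mark2* and *Mark3* changed sign in 1 to 6 of them. With median transcript lengths *Sik1* exceeded *Sik2* by 1.61 (exact permutation test, adjusted p = 0.0375). With 5 libraries that test cannot pass 0.05. Same-numbered libraries did not deviate together (mean r -0.24 across genes, against 0.12 for different numbers), so the number is not taken as a pairing, and the block left *Nuak1* within the limits. Each kinase had at least 125 counts in every library.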
